A study of Homo sapiens with 12 samples.

Results

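The report concerns 10 imprinted genes in SKBR3 cells: H19, IGF2, MEG3, PEG3, PEG10, DLK1, PLAGL1, GRB10, SNRPN and MEST. They are 10 of the 22170 genes in the deposited table and were found by gene symbol. The set was chosen by the normalized counts of H19, which were lower with GSK126 than with DMSO, so the values of that contrast are given for these genes as a description, with no test. SKBR3 is an established human breast cancer line with an amplified ERBB2 (HER2) gene, and all 4 groups come from this 1 line. The first group, GSK126 + lapatinib, had 5 µM GSK126 for 7 days by the time of harvest and 100 nM lapatinib for the last 24 h. The GSK126 group had 5 µM GSK126 for the same 7 days with vehicle in place of lapatinib. The lapatinib group had vehicle in place of GSK126 and 100 nM lapatinib for 24 h, and the DMSO group had vehicle only. Each group had 3 messenger RNA libraries, and the labels do not say whether these came from separate cultures, so a p-value here reflects the spread of libraries and nothing wider.

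GSK126 inhibits EZH2, the subunit of the Polycomb complex PRC2 that methylates lysine 27 of histone H3, and lapatinib blocks the kinase activity of HER2 and of its relative EGFR. An imprinted gene is expressed mainly from the copy inherited from 1 parent, because DNA methylation set in the germ line, and at some loci histone marks, silence the other copy. H19 is a maternally expressed noncoding RNA. It lies beside IGF2, a paternally expressed growth factor gene, and both share a methylated control region bound by CTCF. Both are abundant in fetal tissue and placenta and low in most adult tissues. Gene-level reads do not tell the 2 parental copies apart, so the values below are totals over both and say nothing of imprinting itself.

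H19 is also the host transcript of microRNA miR-675, whose mature products are shown here because they are made from H19 RNA. Both lie inside the H19 gene on the minus strand of chromosome 11 in RefSeq (GRCh38.p14), miR-675-5p at chr11:1996800-1996822 and miR-675-3p at chr11:1996768-1996787. The capitals mark the seed, bases 2 to 8 from the 5′ end, the stretch that pairs with target RNAs. The 2 products have different seeds. The libraries measured messenger RNA and no value for the mature microRNAs is given here.
hsa-miR-675-5p: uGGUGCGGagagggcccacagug
hsa-miR-675-3p: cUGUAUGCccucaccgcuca

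RefSeq promoter windows (GRCh38.p14) were available for 6 of the 10 members, and the 250 bases before the annotated start were used. The windows of H19 and GRB10 are printed because these genes changed in opposite directions with GSK126 in the lapatinib-treated cells, as described further on. H19 had 1 window, at chr11:2001267-2001516 on the minus strand. GRB10 had 5, and the most upstream lies at chr7:50793454-50793703 on the minus strand. The capitals mark CpG dinucleotides, the site of DNA methylation.
H19 promoter: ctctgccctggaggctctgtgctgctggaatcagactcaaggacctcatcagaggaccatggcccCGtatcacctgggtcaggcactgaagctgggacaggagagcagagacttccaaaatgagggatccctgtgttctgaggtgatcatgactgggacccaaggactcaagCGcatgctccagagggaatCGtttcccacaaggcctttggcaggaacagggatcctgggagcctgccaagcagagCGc
GRB10 promoter: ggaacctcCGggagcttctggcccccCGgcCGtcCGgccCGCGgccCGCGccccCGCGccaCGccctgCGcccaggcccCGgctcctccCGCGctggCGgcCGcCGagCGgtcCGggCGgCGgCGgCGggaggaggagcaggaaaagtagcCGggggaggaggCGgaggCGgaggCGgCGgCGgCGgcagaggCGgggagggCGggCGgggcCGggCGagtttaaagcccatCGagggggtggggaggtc

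The H19 window held 4 CpGs, and 34.3% of the 35116 windows in the table held as few. The GRB10 window held 37, and 4.0% of all windows held as many; the median over all windows was 11. Over the 5 GRB10 windows the number of CpGs ranged from 2 to 40, so the printed one does not stand for all starts of the gene. The ranges were 1 to 32 for the 5 windows of PLAGL1, 9 to 20 for the 5 of MEST, 11 to 13 for the 3 of MEG3 and 1 to 12 for the 4 of SNRPN. The GC box GGGCGG, searched on both strands, was found 3 times in the printed GRB10 window and 0 times in that of H19, and 42.6% of all windows held it. The TATA box TATAAA was found in neither printed window on either strand, against 10.7% of all windows. Which start the cells used was not measured.

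The libraries held 17.7 to 30.3 M gene reads, the fewest in GSK126 + lapatinib library 1. That library also stood apart in its rare reads. Genes that had 1 to 3 reads summed over the remaining libraries had a read in it in 89.0% of cases, and in any other library in 10.6% or fewer. The spike-in transcripts split the libraries into 3 compositions by their proportions among themselves. The first held every lapatinib and DMSO library and GSK126 + lapatinib libraries 2 and 3, the second held GSK126 libraries 2 and 3 and GSK126 + lapatinib library 1, and GSK126 library 1 had its own. GSK126 against DMSO therefore compares libraries of different spike-in compositions. In GSK126 + lapatinib against GSK126 only GSK126 + lapatinib library 1 shares a composition with GSK126 libraries (2 and 3). In GSK126 + lapatinib against lapatinib only GSK126 + lapatinib library 1 differs. The labels name no batch. The luminal markers of the line were abundant, with ERBB2, GRB7, KRT8, KRT18, KRT19, EPCAM, ESRP1 and CDH1 summing to between 526656 and 904465 normalized counts in every library. CDH1 alone was under 5 in every library of the GSK126, lapatinib and DMSO groups. H19 and PEG10 are also placental genes, and the 6 placental markers CGA, PSG1, PSG3, KRT23, GCM1 and PAGE4 summed to 712 to 787 with GSK126 + lapatinib, 268 to 472 with GSK126, 103 to 123 with lapatinib and 70.2 to 89.5 with DMSO. PSG1, PSG3, GCM1 and PAGE4 had no read in any DMSO library, and CGA and KRT23 made up most of the sums. The 6 endothelial markers summed to 1555 to 1807 with GSK126 + lapatinib, 1619 to 2323 with GSK126, 619 to 725 with lapatinib and 716 to 936 with DMSO, with the defining PECAM1 and CLDN5 under 5 in every library. The 7 leukocyte markers summed to 675 to 811 with GSK126 + lapatinib, 382 to 534 with GSK126, 255 to 332 with lapatinib and 201 to 242 with DMSO, with PTPRC and CD3E under 5 in every GSK126, lapatinib and DMSO library. The 6 basal or myoepithelial markers summed to 221 to 308 with GSK126 + lapatinib, 188 to 284 with GSK126, 122 to 128 with lapatinib and 75.8 to 170 with DMSO, with CNN1 under 5 in every library. The 8 fibroblast markers summed to 77.1 to 203 with GSK126 + lapatinib, 147 to 247 with GSK126, 209 to 245 with lapatinib and 251 to 395 with DMSO, with DCN and LUM under 5 in every library. The part of these markers in any result was not tested.

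Of the 10 members 5 had few or no reads. IGF2 had 5 reads over all 12 libraries, SNRPN 2, DLK1 6, PEG3 21 and MEG3 28. IGF2 is the paternally expressed neighbour of H19. MEG3 is a maternally expressed noncoding RNA from the locus of DLK1, a Notch-family ligand. PEG3 encodes a zinc finger protein and SNRPN a splicing factor subunit of the Prader-Willi region. Of these 62 reads, 42 (67.7%) came from GSK126 + lapatinib library 1, which held 5.59% of all gene reads. PEG3 had 17 reads there, MEG3 15, DLK1 5, IGF2 3 and SNRPN 2. In the other 2 GSK126 + lapatinib libraries all 5 genes had 0 reads, and a count of 0 allows up to 3 reads. In the remaining groups no library had more than 3 reads of any of them. Their group means with GSK126 + lapatinib thus rest on 1 library, the one with reads in many otherwise silent genes, and no fold is given. These 5 did not reach the filter for testing, which asks for 3 or more libraries with a value of 10 or above. It kept 14179 genes, among them H19, PEG10, PLAGL1, GRB10 and MEST. SNURF, which overlaps SNRPN, and INS-IGF2, which overlaps IGF2, have no row in the table, and how the authors' counting treated reads of overlapping genes is not given in the sources used here.

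**Figure D1:**
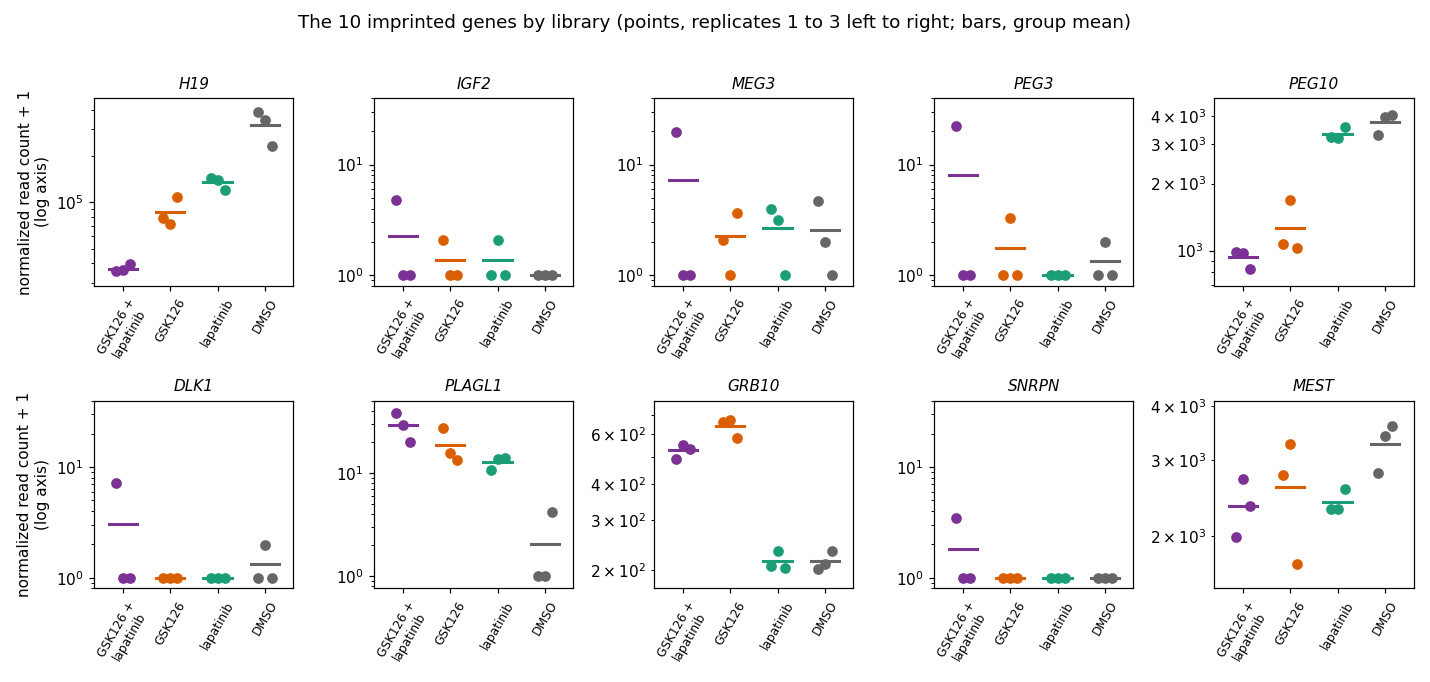
Each panel plots 1 of the 10 members by library, as normalized read count + 1 on a log axis, with the group mean as a bar. H19 and PEG10 sit lowest with GSK126 + lapatinib. GRB10 separates the libraries with GSK126 from those without it, and the share of all genes that do so was not counted. IGF2, MEG3, PEG3, DLK1 and SNRPN have more than 3 reads in no library other than GSK126 + lapatinib library 1.

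H19 was abundant in every library and followed the order of the groups. Its normalized counts were 35457, 36136 and 39435 with GSK126 + lapatinib and 79711, 72312 and 108002 with GSK126. They were 145215, 139434 and 120831 with lapatinib and 386648, 344828 and 234356 with DMSO. The 4 groups did not overlap, and the order was GSK126 + lapatinib lowest, then GSK126, then lapatinib, then DMSO. The GSK126 and DMSO values that chose H19 are part of this order, so it was partly set by the choice. How many genes keep all 4 groups apart was not counted. Lower without overlap were 23.6% of all genes tested in GSK126 + lapatinib against lapatinib and 14.0% in GSK126 + lapatinib against GSK126. The share was 27.2% in lapatinib against DMSO and 9.59% in GSK126 against DMSO. The group means were 37010 ± 2128 with GSK126 + lapatinib, 86675 ± 18836 with GSK126, 135160 ± 12742 with lapatinib and 321944 ± 78683 with DMSO (SD, n = 3 each).

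As a share of all gene reads H19 took 0.161%, 0.153% and 0.151% with GSK126 + lapatinib, 0.258%, 0.311% and 0.419% with GSK126, 0.567%, 0.542% and 0.490% with lapatinib, and 1.24%, 1.30% and 0.839% with DMSO. The exact 95% binomial (Clopper-Pearson) intervals reach at most 0.0043 percentage points to either side, so the gaps between groups are far wider than counting error, which is all these intervals cover. GSK126 library 3 was the highest of its group and DMSO library 3 the lowest of its group.

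**Figure D2:**
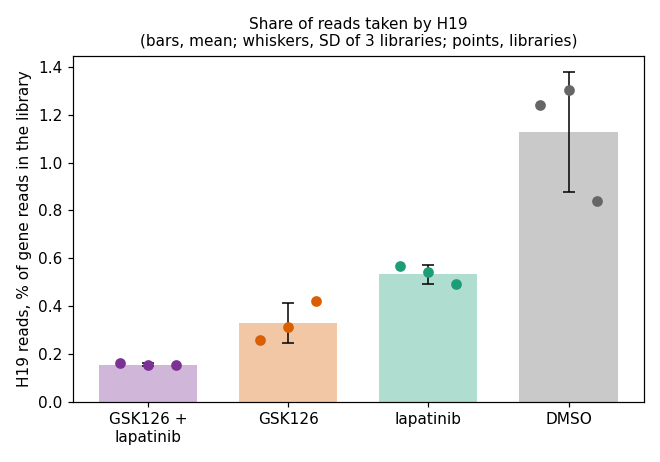
Bars give the mean share of gene reads taken by H19 in each group in percent, whiskers the SD of 3 libraries and points the libraries. The shares run from 0.151% in a GSK126 + lapatinib library to 1.30% in a DMSO library, and no 2 groups overlap. The GSK126 and DMSO groups served to choose H19, and how many genes keep all 4 groups apart was not counted.

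GSK126 + lapatinib against lapatinib asks what GSK126 changed in cells that also had lapatinib, and the change itself uses none of the libraries behind the choice of H19. Its error and p-value do, since the spread was estimated over all 12 libraries. Of the 5 members over the filter H19 and PEG10 fell, GRB10 rose, and PLAGL1 and MEST did not pass the test. Over all 14179 genes tested 17.9% were called, 11.5% higher and 6.35% lower (limma, Benjamini-Hochberg adjusted p under 0.05). The median log2 change was -0.04 over the 5 members and -0.03 over all genes tested.

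H19 fell by 1.87 ± 0.21 on the log2(value + 1) scale, 3.64-fold (limma adjusted p = 4.4e-05). A fit of these 2 groups alone, free of the GSK126 and DMSO libraries, gave the same change with an SE of 0.12 (adjusted p = 7.1e-07). All 3 libraries with GSK126 + lapatinib lay below all 3 with lapatinib, as did 23.6% of all genes tested. Without GSK126 + lapatinib library 1 the change of H19 was -1.84 ± 0.25 (adjusted p = 0.00044). Over 20 other settings it ranged from -2.33 to -1.78, with adjusted p at most 0.00087.

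PEG10, a paternally expressed gene derived from a retrotransposon and needed for the placenta in mice, had 986, 979 and 827 normalized counts with GSK126 + lapatinib and 1069, 1684 and 1030 with GSK126. It had 3226, 3188 and 3591 with lapatinib and 3312, 3983 and 4062 with DMSO. Every library with GSK126 lay below every library without it, a split whose share over all genes was not counted. Of all genes tested, 23.6% were lower in every GSK126 + lapatinib library than in every lapatinib library. For GSK126 against DMSO, the contrast that chose the set, that share was 9.59%. Against lapatinib alone PEG10 fell by 1.84 ± 0.18 with GSK126 + lapatinib, 3.59-fold (limma adjusted p = 1.3e-05). Without GSK126 + lapatinib library 1 the change was -1.89 ± 0.21 (adjusted p = 0.00012). SGCE, the paternally expressed gene next to PEG10 on chromosome 7, averaged 829 ± 166 with GSK126 + lapatinib and 956 ± 68.7 with lapatinib, a log2 change of -0.22 ± 0.37 that did not pass the test (limma adjusted p = 0.767).

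GRB10 encodes an adaptor protein that binds the insulin and IGF1 receptors and dampens their signalling; it is maternally expressed in some tissues and paternally in the brain. It had 492, 551 and 534 normalized counts with GSK126 + lapatinib, 665, 674 and 583 with GSK126, 206, 232 and 202 with lapatinib and 200, 208 and 232 with DMSO. Every library with GSK126 lay above every library without it, and the share of all genes split in this way was not counted. Against lapatinib 23.7% of all genes tested were higher in every GSK126 + lapatinib library. In GSK126 against DMSO 14.4% were higher with no overlap. Against lapatinib alone GRB10 rose by 1.30 ± 0.14 with GSK126 + lapatinib, 2.46-fold (limma adjusted p = 3.7e-05), and by 1.35 ± 0.17 without GSK126 + lapatinib library 1 (adjusted p = 0.00028). Scaling by spike-in reads put the all-gene median at -0.49 and the change of GRB10 at 0.83 (limma adjusted p = 0.496). That change is 1.32 above that median. Its SE was 0.53 with spike-in scaling, against 0.14 in the main fit. Spike-ins held 1.33%, 0.384% and 0.650% of the gene and spike-in reads in GSK126 libraries 1 to 3, so this scale adds spread between libraries. Why calls were lost with spike-in scaling, here and below, was not tested. On that scale H19 changed by -2.33 and PEG10 by -2.31, both called.

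MEST, a paternally expressed hydrolase-like gene of chromosome 7, had 1998, 2707 and 2352 normalized counts with GSK126 + lapatinib and 2309, 2312 and 2572 with lapatinib. The groups overlapped, and the log2 change of -0.04 ± 0.21 did not pass the test (limma adjusted p = 0.938). With GSK126 alone MEST ranged from 1732 to 3274. PLAGL1, a paternally expressed zinc finger factor that regulates other imprinted genes in mice, was scarce, with 37.3, 28.3 and 19.3 normalized counts with GSK126 + lapatinib and 9.79, 12.8 and 13.1 with lapatinib. The 2 groups did not overlap, with PLAGL1 among the 23.7% of all genes tested that did so and were higher, but the log2 change of 1.15 ± 0.60 did not pass the test (limma adjusted p = 0.233). A fit of these 2 groups alone gave an adjusted p of 0.0313. The reads behind it were 85 with GSK126 + lapatinib and 36 with lapatinib, a ratio of 2.32 with an exact 95% interval of 1.56 to 3.53 for counting error only.

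The contrast that chose the set, GSK126 against DMSO, gave a similar picture for the same 5 genes, with no test. The log2 change was -1.88 ± 0.21 for H19, -1.62 ± 0.18 for PEG10, 1.58 ± 0.14 for GRB10 and -0.38 ± 0.21 for MEST. In this comparison 14.6% of all genes tested were called, 10.7% higher and 3.93% lower. For PLAGL1 the normalized counts were 26.3, 14.6 and 12.4 with GSK126 and 0, 0 and 3.2 with DMSO. Its 57 reads with GSK126 against 3 with DMSO give a ratio of 15.7, with an exact 95% interval of 5.10 to 78.3 for counting error only. The libraries of the 2 groups overlapped for MEST and not for PLAGL1 and GRB10, which were higher with GSK126, or H19 and PEG10, which were lower; 14.4% of all genes tested did not overlap and were higher, and 9.59% did not overlap and were lower. In a fit with the spike-in composition as a term the change of PLAGL1 was 2.51 and that of GRB10 1.70. That fit in effect leaves out GSK126 library 1, alone in its composition, and links the others through the GSK126 + lapatinib libraries.

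Lapatinib against DMSO asks what HER2 inhibition did in cells without GSK126, and 28.0% of all genes tested were called, 13.7% higher and 14.3% lower. Of the 4 members tested PLAGL1 was called higher, and PEG10, GRB10 and MEST did not pass. PLAGL1 had 36 reads with lapatinib and 3 with DMSO, and the ratio per unit of depth has an exact 95% interval of 3.46 to 55.6 for counting error only. Its log2 change was 2.99 ± 0.60. PLAGL1 passed the filter only through the 3 drug groups, where it was higher. Its call was favoured by the filter, carries no weight for the set and is given with no p. For GRB10 the 2 groups overlapped, with means of 213 ± 16.5 with lapatinib and 213 ± 16.4 with DMSO (adjusted p = 0.998).

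MEST averaged 2398 ± 151 with lapatinib and 3270 ± 423 with DMSO. The 2 groups did not overlap, as for the 27.2% of all genes tested that were lower in every lapatinib library, and the log2 change of -0.44 ± 0.21 did not pass the test (limma adjusted p = 0.137, and 0.0106 in a fit of these 2 groups alone). PEG10 changed by -0.18 ± 0.18 (adjusted p = 0.491). The change of H19 was -1.22 ± 0.21, 2.34-fold lower with lapatinib, given with no test because the DMSO libraries also served to choose it. Spike-in scaling, which moved the median of all genes to -0.50 here, gave -1.77 for H19, which is 1.27 below that median.

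GSK126 + lapatinib against GSK126 asks what lapatinib changed in cells that already had GSK126, and 18.2% of all genes tested were called, 8.48% higher and 9.71% lower. Of the 4 members tested 0 were called by limma at an adjusted p under 0.05, 1 had an unadjusted p under 0.05, and edgeR and DESeq2 called 0. The log2 changes were -0.41 ± 0.18 for PEG10 (adjusted p = 0.141), -0.28 ± 0.14 for GRB10 (0.193), -0.10 ± 0.21 for MEST (0.763) and 0.67 ± 0.60 for PLAGL1 (0.465). H19 changed by -1.21 ± 0.21, 2.31-fold lower with GSK126 + lapatinib, with no test. Spike-in scaling moved the median of all genes to -1.00 in this comparison and H19 to -2.25, which is 1.25 below that median.

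**Figure D3:**
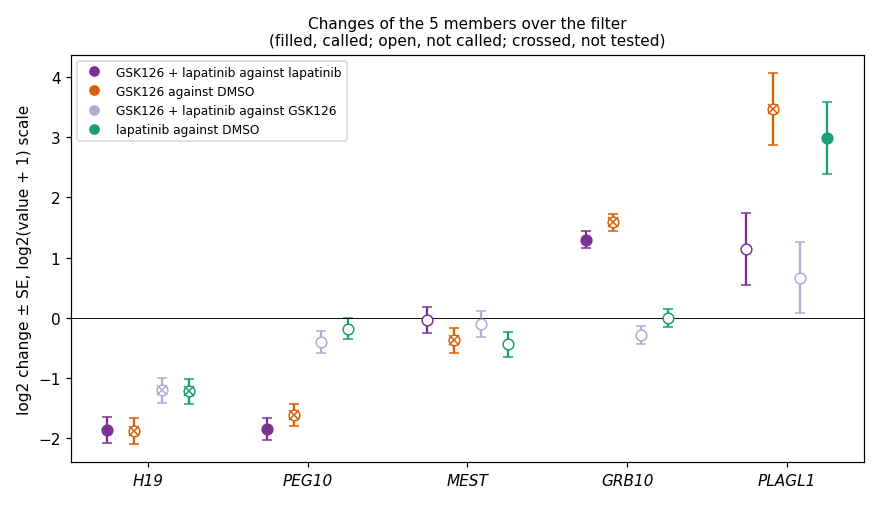
Points give the log2 change ± SE of the 5 members over the filter in 4 comparisons, filled where called, open where not called and crossed where not tested. With GSK126 + lapatinib against lapatinib H19 lies at -1.87, PEG10 at -1.84 and GRB10 at 1.30. H19 alone is also below -1 in both comparisons of lapatinib. PLAGL1 passed the filter only through the drug groups, where it was higher, so its filled point was favoured by the filter.

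The interaction asks whether the change with GSK126 differed between lapatinib-treated and vehicle-treated cells. It was called for 3 of 14179 genes (0.0212%, with 0.0141% higher and 0.00705% lower), and for 0 of the 4 members tested by limma, 1 of which had an unadjusted p under 0.05. The interaction was -0.23 ± 0.26 for PEG10, -0.28 ± 0.20 for GRB10, 0.34 ± 0.30 for MEST and -2.32 ± 0.84 for PLAGL1 (adjusted p = 0.670), and edgeR and DESeq2 called 0 of them as well. For H19 the interaction was 0.02 ± 0.30, with no test. The 2 log2 changes of H19 with GSK126, -1.87 with lapatinib present and -1.88 without it, stood close together.

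The 12 libraries share 4 group means, are no independent draws and include the GSK126 and DMSO libraries that chose H19. Over them, log2 levels of PEG10 had a Pearson r of 0.85 with those of H19, as a description only. The r was 0.42 for MEST, -0.77 for GRB10 and -0.91 for PLAGL1, which had 0, 0 and 3 reads with DMSO. The share of all genes with as strong an r was not counted. The 5 tested genes most like H19 by this measure were SUMO3 (0.98), GOT1 (0.98), POLDIP2 (0.97), PDXP (0.97) and ISYNA1 (0.97). ISYNA1, which encodes inositol-3-phosphate synthase, averaged 224 ± 33.5 normalized counts with GSK126 + lapatinib, 479 ± 112 with GSK126, 545 ± 84.4 with lapatinib and 904 ± 61.3 with DMSO. GOT1, the cytosolic aspartate aminotransferase, averaged 1202 ± 44.9 with GSK126 + lapatinib, 1806 ± 141 with GSK126, 1874 ± 32.8 with lapatinib and 2632 ± 115 with DMSO. Over the 4 group means, and taking genes whose DMSO mean reached 50, the closest were C19orf44, CEBPZOS, FAM162A, PHF23 and DHX15. With 4 points many genes come close to a perfect fit. No member was among either 5.

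Of 16 listed neighbours of H19 on chromosome 11 14 had a row and 9 passed the filter. In GSK126 + lapatinib against lapatinib 1 of these 9 was called higher and 1 lower, beside 11.5% and 6.35% of all genes tested, which is no result about the neighbours, and their median log2 change was -0.13. MRPL23, the mitochondrial ribosomal protein gene on the near side of H19, changed by -0.22 ± 0.42 (adjusted p = 0.802) and MRPL23-AS1 by -1.22 ± 0.91 (0.433). TNNI2, a fast skeletal troponin gene, had 26.1, 19.4 and 37.6 normalized counts with GSK126 + lapatinib and 65.6, 69.2 and 54.4 with lapatinib. It fell by 1.20 ± 0.32 (limma adjusted p = 0.0194), a call that was lost without lapatinib library 1 (0.0720) or 2 (0.0789) and without GSK126 + lapatinib library 1 (0.0604) or 2 (0.0971), and with spike-in scaling (0.151).

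Past IGF2, ASCL2 had 208, 198 and 227 normalized counts with GSK126 + lapatinib and 47.0, 44.7 and 41.3 with lapatinib. ASCL2 is a transcription factor gene needed for the placenta in mice, where it is maternally expressed. It rose by 2.22 ± 0.35 (limma adjusted p = 0.00059), opposite to H19, though spike-in scaling ended that call (adjusted p = 0.0806). SYT8 changed by -0.80 ± 0.29 (adjusted p = 0.0791), CTSD by -0.12 ± 0.23, TH by -0.05 ± 0.27, CD81 by -0.13 ± 0.17 and TSSC4 by 0.12 ± 0.37, and none of these passed the test. LSP1, TNNT3, INS, C11orf21 and TSPAN32 had 3 to 15 reads each over all libraries.

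Beyond the 10 members, 64 symbols of other imprinted genes were listed, 56 had a row and 35 passed the filter. In GSK126 + lapatinib against lapatinib 5 of the 35 rose and 0 fell by limma, beside the 11.5% and 6.35% of all genes tested given above. Lower were 5 of the 35 at an unadjusted p under 0.05, 0 by edgeR and 2 by DESeq2. The share called higher is near that of all genes tested. Of the 5, KCNQ1 passed the filter only through the libraries with GSK126, where it was high, so its call was favoured by the filter. With spike-in scaling 3 of the 5 remained called. Their median log2 change was -0.02, against -0.03 over all genes tested. The 5 are listed as maternally expressed, of 21 such genes tested, and 0 of the 14 paternally expressed ones were called (4 at an unadjusted p under 0.05, 0 by edgeR and 2 by DESeq2); the difference between the 2 classes was not tested.

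TFPI2, a protease inhibitor gene, comes before SGCE and PEG10 in the order of the listed genes on chromosome 7. Genes that were not listed may lie between them. TFPI2 had 758, 815 and 711 normalized counts with GSK126 + lapatinib and 14.7, 31.9 and 29.1 with lapatinib. It rose by 4.93 ± 0.33, 30.5-fold (limma adjusted p = 7.7e-07). TFPI2 and PEG10, of the same imprinted cluster, thus moved in opposite directions. PPP1R9A, on the other side of PEG10, changed by 1.02 ± 0.34 (adjusted p = 0.0578).

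On chromosome 11, in the imprinted cluster beyond H19 and IGF2, CDKN1C and KCNQ1 rose. CDKN1C encodes the cell cycle inhibitor p57. It had 136, 193 and 173 normalized counts with GSK126 + lapatinib and 11.8, 12.8 and 14.1 with lapatinib, a log2 change of 3.59 ± 0.35 (limma adjusted p = 1.3e-05). The potassium channel gene KCNQ1 had 149, 122 and 115 with GSK126 + lapatinib and 17.6, 7.45 and 10.3 with lapatinib, a change of 3.41 ± 0.41. KCNQ1 passed the filter only through the libraries with GSK126, where it was high, so no p is given for it. KCNQ1OT1, the paternally expressed antisense RNA within KCNQ1, changed by 0.29 ± 0.34 (adjusted p = 0.663). The sources used here do not say whether counting used strand, so reads of the 2 overlapping genes cannot be told apart.

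CPA4, a carboxypeptidase gene near MEST, averaged 1076 ± 105 with GSK126 + lapatinib and 360 ± 30.2 with lapatinib and rose by 1.58 ± 0.20 (limma adjusted p = 8.8e-05, and 0.408 with spike-in scaling). The chloride channel gene ANO1 rose by 0.76 ± 0.23 (adjusted p = 0.0392). That call was lost with spike-in scaling, which put the change at 0.29 (adjusted p = 0.775), with total count scaling, a constant prior (0.0671) and TMM scaling (0.0508), and when any 1 of the 6 libraries of both groups was left out (0.0506 to 0.137, the highest without GSK126 + lapatinib library 1).

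**Figure D4:**
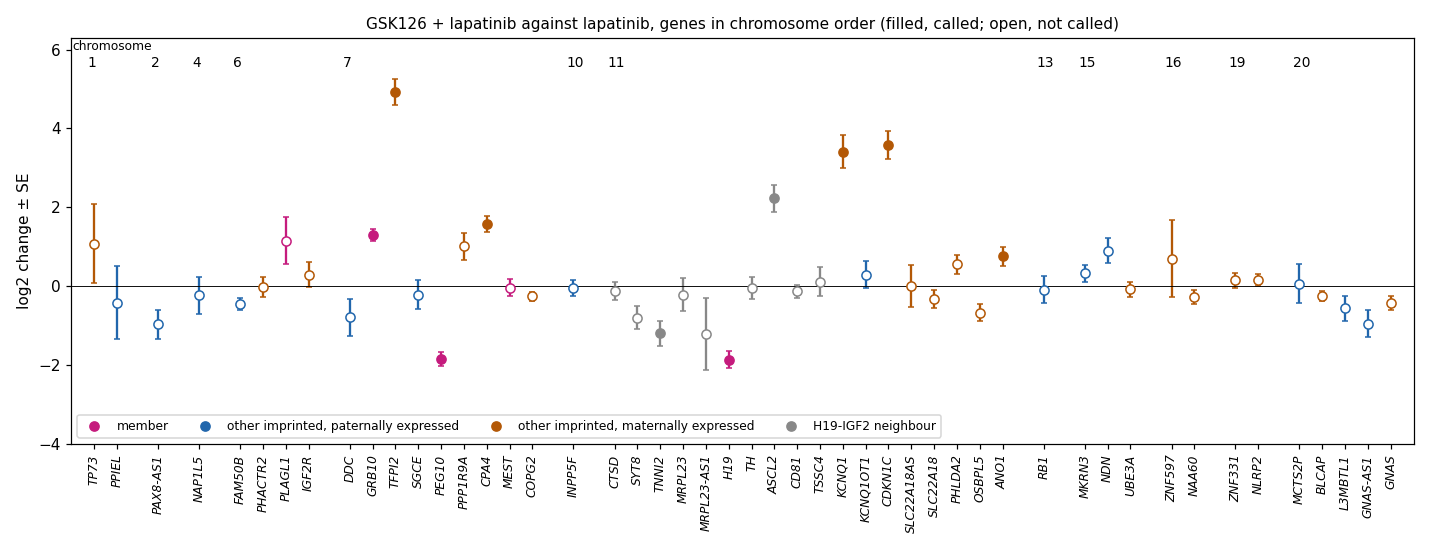
Points give the log2 change ± SE with GSK126 + lapatinib against lapatinib for members, other imprinted genes and neighbours of H19 over the filter, in chromosome order, filled where called. H19 lies at -1.87 and PEG10 at -1.84, while TFPI2, CDKN1C, KCNQ1 and ASCL2 of the same chromosome regions lie above 2. KCNQ1 passed the filter only through libraries with GSK126, where it was high, so its filled point was favoured by the filter.

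With GSK126 against DMSO the genes called higher among the 35 were TFPI2, CDKN1C, KCNQ1, CPA4 and ANO1 and 0 were called lower by limma (3 at an unadjusted p under 0.05, 0 by edgeR and by DESeq2), beside the 10.7% and 3.93% given above. This contrast chose the set, so nothing is read from the count. With lapatinib against DMSO 3 of the 35 rose (ANO1, L3MBTL1, OSBPL5) and PHLDA2 fell, beside 13.7% and 14.3% of all genes tested. Spike-in scaling ended the calls of ANO1 (adjusted p = 0.630), L3MBTL1 (0.365) and OSBPL5 (0.734). PHLDA2 restrains growth of the placenta in mice. It had 248, 286 and 222 normalized counts with lapatinib and 2291, 1522 and 1806 with DMSO, a log2 change of -2.88 ± 0.23 (limma adjusted p = 2.6e-06). PHLDA2 also fell with GSK126 + lapatinib against GSK126, by 1.70 ± 0.23 (adjusted p = 0.0003), along with NAA60 and GNAS-AS1, while ANO1 rose, beside 9.71% called lower and 8.48% higher of all genes tested. Those 3 calls did not last when single libraries were left out. The call of NAA60 was lost without GSK126 + lapatinib library 1 (adjusted p = 0.0566) or 2 (0.0684) or GSK126 library 3 (0.0584). That of GNAS-AS1 was lost without GSK126 + lapatinib library 1 (0.104) or 3 (0.104) or GSK126 library 1 (0.0937), and that of ANO1 without GSK126 + lapatinib library 1 (0.0543) or 2 (0.0510). Spike-in scaling turned ANO1 to -0.072. PHLDA2 averaged 1234 ± 353 with GSK126 and 1873 ± 389 with DMSO.

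In GSK126 + lapatinib against lapatinib 7 of 14 tested genes that receive or modulate IGF2 rose and 0 fell by limma (0 also at an unadjusted p under 0.05, by edgeR and by DESeq2), with a median log2 change of 1.15, against 11.5% called higher and a median of -0.03 over all genes. INSR, the insulin receptor, which also binds IGF2, averaged 1370 ± 140 with GSK126 + lapatinib and 460 ± 21.8 with lapatinib and rose by 1.57 ± 0.17 (adjusted p = 2.9e-05). The adaptor gene IRS2 rose by 2.61 ± 0.40 (adjusted p = 0.00046). Spike-in scaling ended the calls of all 7 (adjusted p = 0.0631 for IRS2 and 0.343 for INSR). IGF2BP1, an mRNA-binding protein gene, passed the filter only through libraries with GSK126, where it was high, so its call was favoured by the filter. The other 6 of the 7 reached the filter in the libraries without GSK126. The call of IRS1 was also lost when any 1 of the 6 libraries was left out (highest adjusted p = 0.112, without lapatinib library 1), that of IGF1R without 4 of them in turn (0.108, without lapatinib library 2) and that of IGF2BP1 without 4 (0.141, without lapatinib library 1). The binding protein genes IGFBP3 and IGFBP2 rose by 2.64 ± 0.34 (adjusted p = 0.00013) and 1.20 ± 0.20 (adjusted p = 0.00096). IGF2R, which clears IGF2, averaged 4408 ± 785 with GSK126 + lapatinib and 3576 ± 294 with lapatinib, and its change was not called. IGF2 itself had 0 reads in 2 of the 3 libraries with GSK126 + lapatinib and 3 reads in the other, and was not detectable at this depth in most libraries.

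Among factors that set or keep imprints, 3 of 14 tested rose and 1 fell in GSK126 + lapatinib against lapatinib, beside 11.5% and 6.35% of all genes tested. Of the 3, NLRP7 and ZFP57 passed the filter only through the libraries with GSK126, where they were high, so their values are given with no p. Spike-in scaling ended the calls of DNMT1 (adjusted p = 0.325), DNMT3A (0.934) and ZFP57. DNMT1, the maintenance DNA methyltransferase, averaged 1293 ± 31.9 with GSK126 + lapatinib and 2001 ± 108 with lapatinib and fell by 0.63 ± 0.13 (limma adjusted p = 0.0034). DNMT3A, a de novo methyltransferase, rose by 0.54 ± 0.13 (adjusted p = 0.0101), a call lost without lapatinib library 2 (0.0547) or GSK126 + lapatinib library 3 (0.0543). ZFP57, a zinc finger protein that protects imprints, had 16.2, 10.5 and 19.3 normalized counts with GSK126 + lapatinib and 3.92, 1.06 and 1.88 with lapatinib. NLRP7, whose mutations in mothers cause loss of imprints in the conceptus, had 70 reads with GSK126 + lapatinib and 0 with lapatinib, at least 22.9-fold higher with a floor of 3 reads over the group.

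DNMT1 also fell with lapatinib against DMSO, by 1.26 ± 0.13 (limma adjusted p = 1.7e-05), together with UHRF1, DNMT3B and TRIM28. These were 4 of the 14 tested factors, and 0 were called higher by limma. Of all genes tested 14.3% were called lower and 13.7% higher. Spike-in scaling ended the calls of DNMT3B (adjusted p = 0.164) and TRIM28 (0.149). That of TRIM28 was also lost when any 1 of the 6 libraries was left out (0.0569 to 0.101), and that of DNMT3B without lapatinib library 2 (0.0597). The target of GSK126, EZH2, is inhibited as an enzyme and its RNA need not change. EZH2 averaged 553 ± 41.6 with GSK126 + lapatinib, 1383 ± 171 with GSK126, 465 ± 28.1 with lapatinib and 1550 ± 14.7 with DMSO. In GSK126 + lapatinib against lapatinib its change of 0.25 ± 0.13 was not called (adjusted p = 0.254). Of the 11 PRC2 genes PHF19 alone was called, at 1.47 ± 0.31 (limma adjusted p = 0.0042, and 0.469 with spike-in scaling). Of all genes tested 11.5% were called higher and 6.35% lower. In lapatinib against DMSO EZH2, EED, RBBP7 and SUZ12 were called lower and EZH1 higher, beside 14.3% and 13.7% of all genes. In GSK126 + lapatinib against GSK126 EZH2, PHF19, EED and SUZ12 were lower and EZH1 higher, beside 9.71% and 8.48%. Spike-in scaling ended the first calls of EED, RBBP7, SUZ12 and EZH1 and reversed EZH1 in the second comparison. Leaving out single libraries ended SUZ12 in both, EZH1 in the first and EED in the second.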

How the data were processed

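Per the labels, an RNeasy Plus Mini kit gave the RNA, and libraries from a Kapa mRNA HyperPrep kit were read as 75 bp single ends (NextSeq500). The authors aligned with STAR to hg19 and normalized with DESeq2, per the submitters' processing notes, which name no version; counter, annotation and filters are not given in the sources used here. The deposited values are a signal: a gene's read count over its library's size factor, as the authors computed it. In every column 100% of values were whole multiples of 1 read within 0.01, so the reads were recovered for the count tests. The members and gene lists were chosen with earlier results of these data known.

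The test was limma 3.58.1 on log2(value + 1) with all 12 libraries, a mean per group (8 residual degrees of freedom) and a prior variance with a trend. The 14179 genes with 3 or more libraries at 10 or above were tested, with Benjamini-Hochberg adjustment over all of them. Genes were called at an adjusted p under 0.05. The procedure was tested on simulated data in which all groups had 1 common spread. The real groups differed, with log2 levels of library pairs correlating at 0.936 to 0.976 within GSK126 and 0.990 to 0.991 within lapatinib. Unequal spread was not simulated. Named genes are all members, EZH2, the neighbours of H19, the 5 most like H19 and up to 6 called other imprinted genes per comparison. Each other list gave up to 4 called genes in GSK126 + lapatinib against lapatinib. IGF2R, IGF1R, IRS1, IGF2BP1, UHRF1, DNMT3B, TRIM28, EZH1, EED, RBBP7, SUZ12, SGCE, PPP1R9A and KCNQ1OT1 were added after their values were seen. Chromosomes and gene order came from RefSeq (GRCh38.p14), whose coordinates are not those of hg19. Alternatives were other pseudocounts (0.5, 5) and filters (none, 50), 4 further scalings, a constant prior, only the groups compared, a replicate block, the spike-in composition as a term, edgeR 4.0.16 and DESeq2 1.42.0 on the recovered reads, and leaving out each library.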

Additional observations from a re-analysis of the deposited data

How the results depend on the processing

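H19 and PEG10 kept their direction and call in GSK126 + lapatinib against lapatinib under all 20 alternatives, and GRB10 under all but spike-in scaling (0.83). The call of PLAGL1 in lapatinib against DMSO went with a filter of 50, which left 0 members called because PLAGL1 was no longer tested. PLAGL1 also dropped out of the tested genes in the fit of just those 2 groups, where the 1 member called was MEST instead. Leaving out 1 library at a time left 3 members called for GSK126 + lapatinib against lapatinib and 1 for lapatinib against DMSO. That 1 is PLAGL1, whose call was favoured by the filter. For GSK126 + lapatinib against GSK126 and for the interaction 0 were called. Genes called then ranged from 1739 to 2022 for GSK126 + lapatinib against lapatinib (2537 with all libraries), 2546 to 3480 for lapatinib against DMSO (3973), 1359 to 4412 for GSK126 + lapatinib against GSK126 (2579), 1458 to 3231 for GSK126 against DMSO (2069) and 1 to 18 for the interaction (3). Spike-in scaling called 408 genes for GSK126 + lapatinib against lapatinib, 782 for lapatinib against DMSO, 555 for GSK126 against DMSO and 0 for the interaction, and in GSK126 + lapatinib against GSK126 it reversed ANO1 to -0.072, INSR to -0.35 and EZH1 to -0.14. Fitting just the groups compared called 4977 for GSK126 + lapatinib against lapatinib, 6258 for lapatinib against DMSO, 944 for GSK126 + lapatinib against GSK126 and 822 for GSK126 against DMSO. The spike-in composition as a term called 1147 for GSK126 + lapatinib against GSK126, 446 for GSK126 against DMSO and 1 for the interaction. For the interaction no filter, TMM scaling and total count scaling called 1 gene each, a constant prior 8 and DESeq2 115. The cause of these shifts was not tested. Total count scaling moved the median of all genes by over 0.1 in lapatinib against DMSO (to 0.20), in GSK126 + lapatinib against GSK126 (to 0.19) and in GSK126 against DMSO (to 0.061, where it was -0.04). A fit with the replicate number as a block called 1 gene for the interaction and left the calls of the members as they were; same-numbered libraries correlated above 0.1 in 4 of 18 pairs (r from -0.33 to 0.35) and 4 of 12 libraries correlated best with their own number, so the numbers were not taken as pairing. Low read counts limit what can be said of IGF2, SNRPN, DLK1, PEG3 and MEG3, and of PLAGL1 with DMSO (3 reads). Single reads decide those values.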
